A study of Mus musculus with 20 samples.

Results

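Undifferentiated spermatogonia taken from mouse testes on postnatal day 3 (P3) were compared between a conditional knockout of Chd4 and its control. The comparison used every gene with at least 1 TPM (a transcript level scaled for gene length and library depth) in at least 2 of the 4 libraries, which left 18671 of the 55291 genes in the table. The series holds 20 libraries, and the other 16 are from oocytes. The knockouts (DcKO) carried Chd4 f/- with Ddx4-Cre Tg/+, that is, a floxed allele over an allele that was already null. The controls (Dctrl) carried Chd4 f/+ with the same Ddx4-Cre Tg/+, so they had Cre and a wild-type allele over a floxed allele. Where Cre acted, control germ cells kept only the wild-type allele, so the comparison is not with cells in which both alleles were intact. Ddx4-Cre is a transgene that drives Cre from a promoter active in germ cells, so somatic cells of the testis were not its target. Somatic cells still differed by genotype, with a null allele in the knockouts and none in the controls. All mice had a mixed background of C57BL/6, 129S1/Sv and FVB/NJ, and each group had 2 libraries, here called replicates 1 and 2. The labels give neither a sort nor a gate for these cells and do not say that the replicates were separate animals, so p-values measure only the spread between libraries, which may be technical.

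CHD4 is the ATPase of the NuRD complex, which couples nucleosome remodelling to histone deacetylation and is known mainly as a repressor of transcription. Undifferentiated spermatogonia are the germ cells from which sperm production is renewed. In the newborn testis they come from gonocytes, respond to GDNF from Sertoli cells, and leave the undifferentiated state under retinoic acid. Genes such as Nanos2, Zbtb16 and Gfra1 mark that state, while Kit and Stra8 mark differentiation.

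The 4 libraries held 18.9 to 30.1 M reads (1 M is 1000000), recovered from the TPM values. Germ cell genes were high in all of them. Ddx4, the germ cell helicase whose promoter drives the Cre, was at 1336 and 1223 TPM in the controls and at 1102 and 1151 in the knockouts. The 31 listed genes of undifferentiated spermatogonia summed to 4849 and 4162 TPM in the controls and to 4297 and 4047 in the knockouts. The 16 listed genes of differentiating spermatogonia summed to 3317 and 3519 TPM in the controls and to 4308 and 4159 in the knockouts. Markers of the labelled state were thus abundant in every library, but in the knockouts their sum was not above that of the differentiating list. Markers of other testis cells were also read, and several of their lists had a higher sum in both knockouts. The Sertoli cell list summed to 961 and 1027 TPM in the controls and to 1899 and 2398 in the knockouts, the stromal list to 174 and 148 against 234 and 279, the endothelial list to 345 and 356 against 415 and 431, and the blood list to 189 and 161 against 440 and 518. Their members ran from absent to abundant. Krt18, Rhox5 and Fcer1g, which are on the Sertoli and blood lists, were at 252 to 720 TPM in the knockouts. Their rise made up most of the rise of the Sertoli and blood sums. The controls had Krt18 at 48.5 and 59.2 TPM and Rhox5, which is also on the Rhox list below, at 117.0 and 120.5. Sox9, Pdgfrb, Pecam1 and Cdh5 were between 0.09 and 29.3 TPM. Other defining members were near 0: Fshr and Hsd3b1 were listed at 0.07 TPM or less in every library, Ptprc and Csf1r at 0.45 or less, and Amh, the hormone of immature Sertoli cells, at 2.10 to 4.05.

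**Figure D1:**
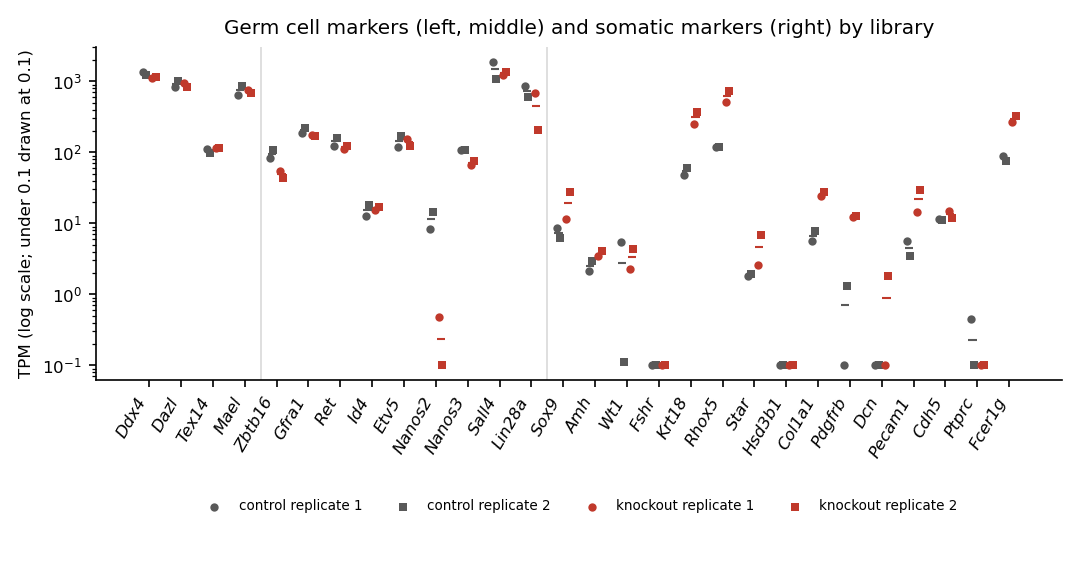
TPM on a log axis for 4 genes of all germ cells (left), 9 genes of undifferentiated spermatogonia (middle) and 15 members of the somatic lists (right); grey points are control libraries, red points knockout libraries, circles replicate 1, squares replicate 2, and short lines group means. Germ cell genes other than Nanos2 stand above 10 TPM in every library, while the somatic list members run from 0 to 720 TPM, with Krt18, Rhox5 and Fcer1g the highest.

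Chd4 itself (ENSMUSG00000063870, GRCm38 chromosome 6, 125095981 to 125130591) was read over all of its exons, since the deleted ones cannot be singled out in the table. It was at 249 and 286 TPM in the controls and at 40.2 and 51.7 in the knockouts. The groups did not overlap, and the log2 difference was -2.52 (standard error 0.196, limma adjusted p = 0.0671). Reads of the gene were present in both knockout libraries.

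No gene passed the limma test at an adjusted p of 0.05, a share of 0% of the genes tested, and the smallest adjusted p was 0.0671. At an unadjusted limma p under 0.05 there were 3004 genes (16.1%), of which 2073 (11.1%) were higher and 931 (4.99%) lower in the knockouts. These last counts are used below only to describe the data, and "higher" and "lower" stand for this unadjusted level unless values alone are given. Of the 3004 genes, 69.0% were higher. That share was 55.2% (1504 higher, 1221 lower) with quantile normalization and 58.5% (1801 higher, 1277 lower) with median-of-ratios scaling. The median log2 difference of all genes was 0.09, and it went to -0.07 with quantile normalization. Testing only the 12737 genes with at least 5 TPM in at least 2 libraries gave 56 genes past the adjusted test, 51 higher and 5 lower, with Chd4 among the latter (limma adjusted p = 0.0155). The adjusted test called 24 genes without control replicate 1, 12 without control replicate 2, 0 without knockout replicate 1 and 3 without knockout replicate 2. With a library left out, the filter was applied again to the 3 libraries left. A gene that reached 1 TPM only in the 2 libraries of a group was therefore no longer tested without 1 of them. Leaving out a library lowered the unadjusted count over all genes, to between 1076 of 17067 genes higher (without knockout replicate 2) and 1577 of 17529 (without control replicate 2), and the list counts given below for 3 libraries are to be read against that.

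Size and level differed between the directions. Log2 differences over 1 made up 1675 of the 2073 higher genes, while differences under -1 made up 476 of the 931 lower genes. Of the higher genes 594 were under 1 TPM in both controls, and of the lower genes 231 were under 1 TPM in both knockouts. The filter admitted such genes only through the group where they were present, so they had to differ. The filter of 5 TPM can admit genes through a single group in the same way. At the edge of the filter, 271 tested genes had a second highest level of 1 to 1.1 TPM and 261 genes left out had one of 0.9 to 1. Among genes with a mean of 10 to 50 TPM over all libraries 11.9% were higher and 3.55% lower. Among those at 100 to 1000 TPM 7.54% were higher and 12.6% lower, and of the 80 genes over 1000 TPM 2 were higher and 13 lower. The knockout libraries had 18657 and 18304 genes at 1 TPM or more and the controls 17305 and 17259, with 869 genes under 1 TPM in both controls that reached it in both knockouts and 360 the other way round.

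**Figure D2:**
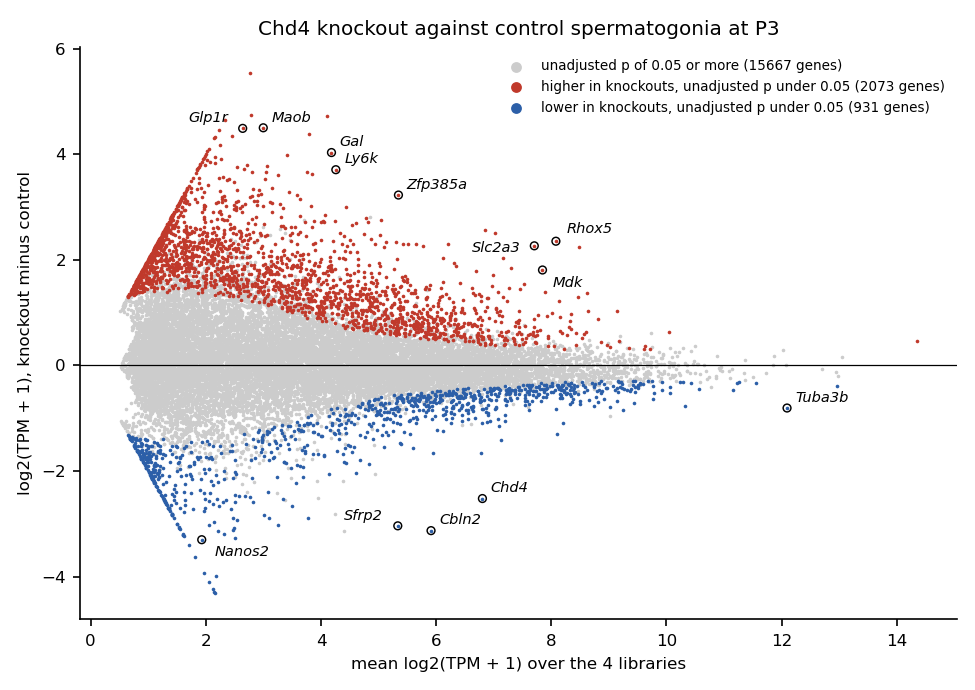
Each point is a gene, with its mean log2(TPM + 1) over the 4 libraries on the x axis and the log2 difference, knockout minus control, on the y axis; red genes were higher and blue genes lower at an unadjusted limma p under 0.05, and some named genes are circled. The 2073 red genes spread upwards at low and middle levels, while the 931 blue genes include many with small differences at high levels.

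The genes with the smallest p values were tightly grouped in both genotypes. Slc2a3, which encodes the glucose transporter GLUT3, was at 89.6 and 98.9 TPM in the controls and at 460 and 454 in the knockouts (log2 difference 2.27, standard error 0.141, limma adjusted p = 0.0671). Zfp385a, a zinc finger protein, was at 13.9 and 10.9 TPM against 118 and 129, a log2 difference of 3.23. Rhox5, an X-linked reproductive homeobox gene, was at 117 and 121 TPM against 518 and 720, a log2 difference of 2.35. In each of these the lowest knockout library stood more than 4 times above the highest control. Atp1b2, a subunit of the sodium pump, was at 63.9 and 76.4 TPM against 294 and 282. Mdk, the secreted growth factor midkine, was at 133 and 112 TPM against 442 and 419. Both had the same adjusted p as Slc2a3. The remaining genes of this group were Dlk1, Krt18, Ly6k and Cacng8, with limma adjusted p = 0.0745 for each. Ly6k, a germ cell surface protein, was at 5.44 and 3.35 TPM in the controls and at 76.5 and 60.8 in the knockouts. Krt18, a keratin of simple epithelia that is also on the Sertoli cell list, was at 48.5 and 59.2 TPM against 252 and 376. Cacng8, an auxiliary subunit of glutamate receptors, was at 58.4 and 36.3 TPM against 268 and 292. With the stricter filter of 5 TPM all 10 of these genes passed the adjusted test.

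**Figure D3:**
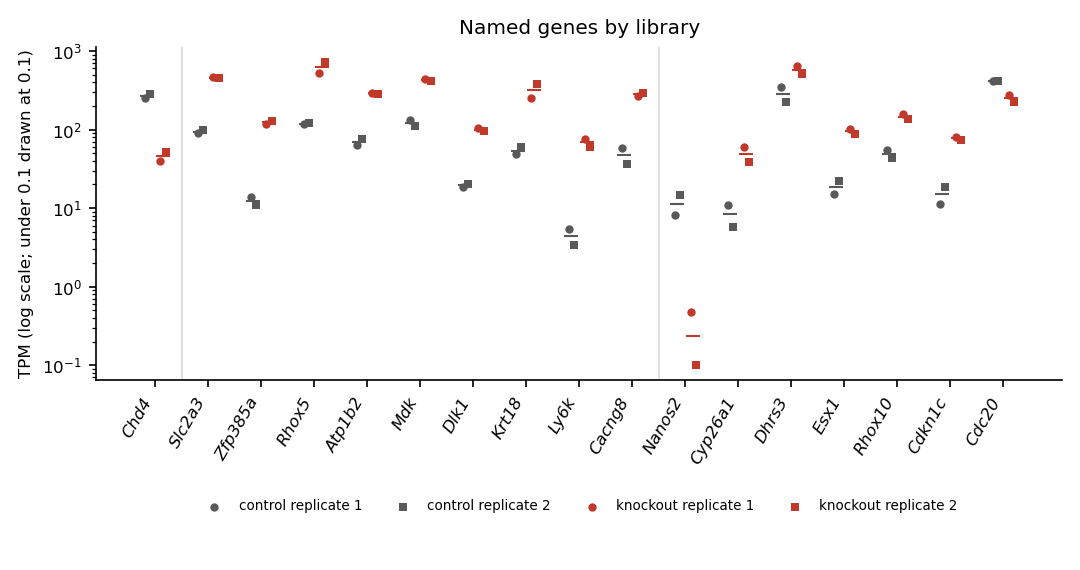
TPM on a log axis for Chd4, the other 9 genes with the smallest p, and 7 genes of the lists and groups described below; grey points are control libraries, red points knockout libraries, circles replicate 1, squares replicate 2, and short lines group means. Control and knockout libraries do not overlap for any gene shown.

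Most genes with the largest higher differences were under 2 TPM in both controls, with Ak1 and Gal above that. Glp1r, Vegfb, Sult1c1, Nat3, Rnase12, Fam163b, Tmem37, Snora17 and Snora43 were under 1 TPM in both controls. They passed the filter only through the knockouts, so they had to differ. Maob, a mitochondrial monoamine oxidase, was at 0.06 and 1.66 TPM in the controls and at 44.1 and 31.1 in the knockouts, a log2 difference of 4.50 with a standard error of 0.61. Glp1r, the receptor of the gut hormone GLP-1, was at 0.63 and 0.06 TPM against 20.8 and 39.2. Gal, which encodes the neuropeptide galanin, was at 3.18 and 3.82 TPM against 101 and 52.0 (log2 difference 4.03, limma adjusted p = 0.077). Ak1, an adenylate kinase, was at 5.74 and 0.36 TPM against 83.3 and 46.6. The enzyme genes Adh4, Sult1c1 and Nat3 belonged to the same group, together with Dusp2, a phosphatase of MAP kinases, and Vegfb, a growth factor of the VEGF family. Vegfb was at 0.52 and 0.65 TPM in the controls and at 26.5 and 15.7 in the knockouts. Rnase12 was listed at 0 in both controls and at 10.4 and 41.2 TPM in the knockouts. Fam163b and Tmem37 were under 0.16 TPM in both controls and between 12.8 and 18.1 in the knockouts. Of the 14 genes named by size, 2 were the small nucleolar RNA genes Snora17 and Snora43, which are short and were listed at 0 in both controls.

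The largest lower differences included a gene that defines the stem cell state. Nanos2, an RNA-binding protein that keeps male germ cells undifferentiated, was at 8.23 and 14.5 TPM in the controls (77 and 196 reads) and at 0.47 and 0 in the knockouts (4 and 0 reads). Its log2 difference was -3.30 (standard error 0.605, limma adjusted p = 0.143). Nanos2 was under 1 TPM in both knockouts, so it passed the filter only through the controls and had to differ. Cbln2, a secreted synapse organiser, was at 195 and 161 TPM against 12.3 and 30.2, and Sfrp2, a secreted Wnt antagonist, was at 94.9 and 139 TPM against 28.8 and 5.66. Both were abundant in the controls, and their knockout libraries lay well apart from each other without reaching the controls. Pip4k2a, a phosphoinositide kinase, was at 21.5 and 23.4 TPM against 4.88 and 0.68. Zpbp2, an acrosomal protein, was at 13.01 and 8.87 TPM against 0.11 and 0.90, and it too passed the filter only through the controls. Bfsp1, a lens filament protein, and the histone gene H2bc11 were also in this group. Of the 14 names, 6 were genes of small RNAs (Mir6905, Mir6374, Mir186, Mir181a-2, Snord53 and mt-Tt) that rested on 1 to 12 reads in each control library, and the library protocol was not one for small RNAs. All of them but mt-Tt were listed at 0 in both knockouts, so they passed the filter only through the controls.

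The genes of undifferentiated spermatogonia did not move together. Of 30 tested, 6 were higher and 3 lower, beside 11.1% and 4.99% of all genes, with a median log2 difference of 0.11. With 3 libraries 2 to 4 were higher, the fewest without knockout replicate 2, and 2 or 3 lower. The higher count was 2 with quantile normalization and 3 with median-of-ratios scaling or without the trend. The lower genes were Nanos2, which passed the filter only through the controls, Zbtb16 and Nanos3. Zbtb16, the repressor PLZF needed for self-renewal, was at 82.3 and 110 TPM in the controls and at 54.5 and 44.2 in the knockouts, a log2 difference of -0.94 with a standard error of 0.23. Nanos3 was at 108 and 109 TPM against 65.6 and 76.3. The higher genes were T, Tspan8, Thy1, Utf1, Pax7 and Cdh1. T, the factor brachyury, was at 4.98 and 7.45 TPM against 28.5 and 20.8. The receptor genes for GDNF were slightly under their control level: Gfra1 was at 185 and 222 TPM against 178 and 171, and Ret at 125 and 162 against 112 and 124. In each, both knockout libraries lay below both controls, as in 18.0% of all genes, but the unadjusted level was not reached. Id4 and Etv5, factors tied to stem cell activity, had log2 differences of 0.11 and -0.04 with standard errors of 0.35 and 0.23. Lin28a was at 873 and 602 TPM in the controls and at 681 and 204 in the knockouts, so that only knockout replicate 2 lay far from the controls. Among 22 targets of GDNF and FGF signalling, Dusp6, a feedback phosphatase of the ERK pathway, was at 191 and 214 TPM against 89.9 and 121, and it was the only lower gene while 2 were higher.

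Of 16 tested genes of differentiating spermatogonia 8 were higher and 0 lower, beside 11.1% and 4.99% of all genes, and the median log2 difference was 0.75. Without each library in turn 5 to 9 were higher, the fewest without knockout replicate 1, and 0 or 1 lower, and 4 were higher when the variance trend was left out of the fit. Esx1, an X-linked homeobox gene, was at 15.0 and 22.5 TPM in the controls and at 101 and 87.9 in the knockouts (log2 difference 2.30, limma adjusted p = 0.091). Stra8, the retinoic acid target needed to enter meiosis, was at 85.6 and 70.5 TPM against 153 and 115. Sohlh2 and Sohlh1, transcription factors of differentiation, were at 207 and 292 against 373 and 446 TPM and at 401 and 475 against 574 and 563 TPM. Dnmt3b, Sycp3, Tex101 and Rhox13 completed the higher members. Stra8, Dnmt3b, Sycp3 and Rhox13 are also members of other lists below, so the counts of these lists are not separate observations. Kit, the receptor that marks the differentiating state, was at 34.1 and 31.8 TPM against 37.4 and 31.3, with overlapping libraries.

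Retinoic acid acts through RAR and RXR receptors that bind paired repeats in DNA, is held in the cell by CRABP proteins and is cleared by CYP26 enzymes, whose genes it induces. Of 20 tested genes on the retinoic acid list, 7 were higher and 0 lower, with a median log2 difference of 0.53. Of all genes tested 11.1% were higher and 4.99% lower. Among the genes of clearance and storage, Cyp26a1 was at 10.95 and 5.84 TPM in the controls and at 60.8 and 38.3 in the knockouts (log2 difference 2.45, standard error 0.42). Dhrs3, which turns retinal back into retinol, was at 346 and 224 TPM against 639 and 511. The binding proteins were higher too: Crabp1 was at 170 and 182 TPM against 404 and 279, Crabp2 at 6.83 and 9.63 against 39.7 and 25.9, and Rbp4 at 33.2 and 25.9 against 108 and 60.8. In all 5 of these genes every knockout library lay above both controls. Meioc, a gene of meiosis that is also on this list, was at 21.3 and 26.5 TPM against 61.6 and 60.1, and Stra8 is given above. The receptor and synthesis genes did not reach the unadjusted level. Rara was at 13.4 and 15.2 TPM against 4.14 and 8.87, Rxra at 5.14 and 12.8 against 22.4 and 18.2, and Aldh1a2 at 15.4 and 17.0 against 41.1 and 16.9. Rarb, itself a target, stayed under the filter at 0.03 and 0 TPM in the controls and at 0.28 and 3.70 in the knockouts.

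The 250 bases before the start of Cyp26a1 are shown because they hold a match to the DR5 retinoic acid element, 2 direct repeats with a spacer of 5 bases, which was searched on both strands of promoter windows from RefSeq (GRCm38.p6, 250 bases before to 50 after the start). The capitals mark the match, which lies on the minus strand relative to the gene at bases -32 to -16 from the start, in chr19:37697558-37697807 on the plus strand.
Cyp26a1: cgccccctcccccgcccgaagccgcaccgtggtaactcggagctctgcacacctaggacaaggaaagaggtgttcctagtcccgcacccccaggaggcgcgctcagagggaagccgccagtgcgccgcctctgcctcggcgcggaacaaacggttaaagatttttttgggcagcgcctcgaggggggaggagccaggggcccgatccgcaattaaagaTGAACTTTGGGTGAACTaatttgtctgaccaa
Of 32851 windows, 32 (0.0974%) held such a match, and of 19 retinoic acid genes with a window 2 did, Cyp26a1 and Rarb. Of the 5 tested genes with a match, 1 was higher, Cyp26a1, and 0 lower. A match describes these letters and is not a measured binding site.

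Among X-linked families of the male germ line, 13 of 29 tested genes of the MAGE, Xlr and Rhox families were higher and 0 lower, beside 11.1% and 4.99% of all genes, with a median log2 difference of 0.63. With each library left out in turn 7 to 12 were higher, with 7 without knockout replicate 1 and 8 without control replicate 2, and 0 or 1 lower, and 8 were higher without the trend. The Rhox cluster of homeobox genes gave 7 of the 13: Rhox2a, Rhox5, Rhox6, Rhox9, Rhox10, Rhox11 and Rhox13. Rhox10, which acts in the formation of spermatogonial stem cells, was at 54.5 and 43.5 TPM in the controls and at 156 and 135 in the knockouts. Rhox2a was at 18.4 and 29.8 TPM against 82.1 and 74.4. Rhox9 and Rhox11 were under 0.7 TPM in both controls and between 4.17 and 8.18 in the knockouts, so they passed the filter only through the knockouts. With the filter of 5 TPM 11 of 25 genes of these families were higher and 0 lower. Magea2 was at 10.9 and 12.4 TPM against 36.2 and 38.04, and Xlr4a at 92.2 and 75.3 against 169 and 120. Many of these genes have near-identical copies, so the assignment of reads among them is uncertain.

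Over the whole X chromosome, 118 of 733 tested genes (16.1%) were higher and 20 (2.73%) lower. On the autosomes 1890 of 17417 (10.9%) were higher and 881 (5.06%) lower. The X share of higher genes was above the autosomal share under each of the 12 alternative settings run. With all 4 libraries it was 14.1% to 20.7%, and the setting without a filter was read over the same genes. Among autosomes the share of higher genes ran from 7.79% (31 of 398 genes) on chromosome 18 upwards, and was highest on chromosome 11 with 205 of 1466 genes. Of 26 genes on the Y, 8 were higher and 1 lower.

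Promoter base composition went with direction. The CpG ratio is the number of CpG pairs over the number that the C and G content would give, and it is low where germ line methylation has removed CpG and near 1 in CpG islands. A promoter window was found for 10807 of the 13298 tested protein-coding genes on the chromosomes covered (81.3%), of which 11.6% were higher and 4.7% lower. In the class with a ratio of 0 to 0.2, 126 of 566 genes (22.3%) were higher and 12 (2.12%) lower. The shares of higher genes went to 24.2%, 17.4%, 11.1% and 7.41% in the next classes, and to 62 of 1494 genes (4.15%) with a ratio over 1, where 83 (5.56%) were lower. The lowest class holds many genes with low levels, so the classes were also read among genes with a mean over 10 TPM. That mean covers all 4 libraries, so it still admits genes that were high only in the knockouts. Among genes over 10 TPM the share of higher genes went from 29.7% of 145 in the lowest class to 3.89% of 1157 in the highest. The order of the lowest and highest class was the same on the autosomes alone (22.0% and 3.98%) and in genes with a single annotated start (22.0% and 3.56%). It was also the same in the 9843 genes whose window lay within 1000 bases of their start in the GENCODE annotation M21 (22.4% and 4.06%, a check chosen after seeing the data). The order held under each of the 12 alternative settings. In those with all 4 libraries the lowest class had 15.9% to 26.9% and the highest 3.01% to 5.35%. Classes without a filter were read over the same genes, so that setting does not test the filter.

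**Figure D4:**
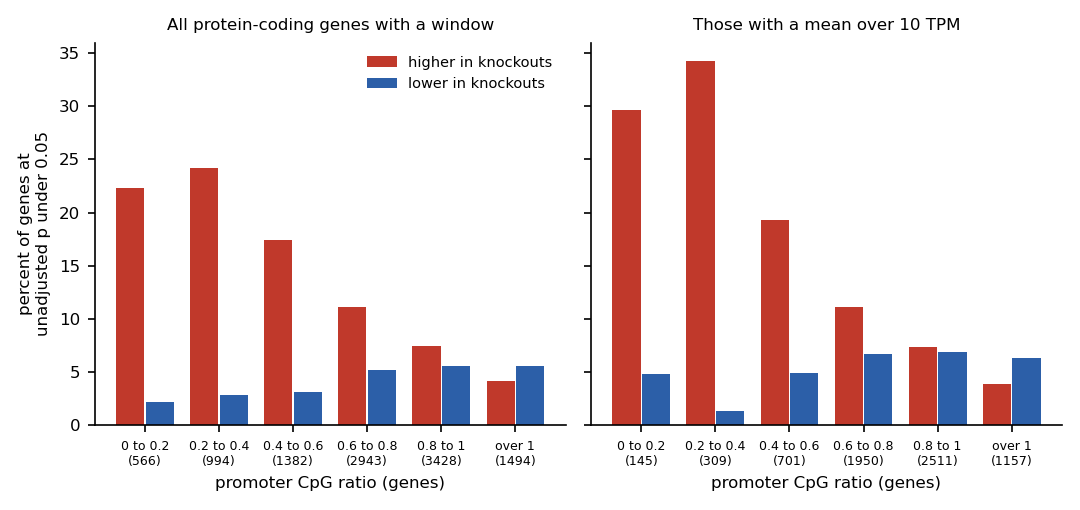
Percent of genes higher (red) and lower (blue) in knockouts at an unadjusted limma p under 0.05, by the CpG ratio of the promoter window, for all protein-coding genes with a window (left) and for those with a mean over 10 TPM (right); numbers of genes are in parentheses. The red bars go from over 20% in the lowest classes to about 4% in the highest, and the blue bars stay under 7%.

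A promoter from the lowest and from the highest of these classes shows the contrast, each the gene with the smallest p in its direction among those that met the criteria for named genes and had a single start that lay within 1000 bases of the start of the gene in the GENCODE annotation M21. Sfn, which encodes the epithelial adaptor protein 14-3-3 sigma, was higher and has a ratio of 0.19 with 3 CpG pairs in the 250 bases before its start (chr4:133602169-133602418, minus strand). Fkbp4, which encodes an HSP90 co-chaperone, was lower and has a ratio of 1.08 with 25 CpG pairs (chr6:128438657-128438906, minus strand). Capitals mark CpG pairs.
Sfn: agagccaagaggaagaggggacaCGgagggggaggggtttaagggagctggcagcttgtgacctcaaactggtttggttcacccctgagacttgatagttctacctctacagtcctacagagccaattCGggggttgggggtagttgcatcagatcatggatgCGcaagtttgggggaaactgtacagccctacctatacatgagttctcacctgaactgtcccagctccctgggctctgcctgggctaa
Fkbp4: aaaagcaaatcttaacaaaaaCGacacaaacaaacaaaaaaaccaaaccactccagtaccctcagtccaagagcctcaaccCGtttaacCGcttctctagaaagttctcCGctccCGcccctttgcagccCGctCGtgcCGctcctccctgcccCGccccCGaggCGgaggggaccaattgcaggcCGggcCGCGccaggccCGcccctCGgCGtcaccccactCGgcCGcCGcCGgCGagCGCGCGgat
Sfn was at 18.96 and 24.7 TPM in the controls and at 99.1 and 124 in the knockouts, a log2 difference of 2.30 with a standard error of 0.244. Fkbp4 was at 1075 and 1088 TPM against 680 and 717, a log2 difference of -0.63 with a standard error of 0.113. Neither pair of groups overlapped, and both genes were chosen after their values were seen.

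Imprinted genes, which are expressed from the maternal or the paternal allele only, had 8 of 30 tested higher and 1 lower, beside 11.1% and 4.99% of all genes. Their median log2 difference was 0.64. Leaving out each library in turn gave 7 higher and 1 or 2 lower members. Dlk1, a membrane protein related to Notch ligands, was at 18.7 and 20.5 TPM in the controls and at 103 and 96.8 in the knockouts, a log2 difference of 2.30. Cdkn1c, an inhibitor of the cell cycle, was at 11.2 and 18.8 TPM against 81.5 and 73.3. The growth-restraining RNA H19 was at 49.9 and 57.5 TPM against 103 and 104, and Phlda2 at 13.3 and 18.3 against 42.1 and 41.0. Nnat, Mest, Ascl2 and Gnasas1 were the other higher members. Snrpn, a splicing protein gene expressed from the paternal allele, was the lower one, at 112 and 106 TPM against 67.3 and 48.0. The higher genes include maternally and paternally expressed ones, and the files do not separate alleles.

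The DNA methylation machinery, which sets the paternal imprints in gonocytes before birth, had 4 of 18 tested genes higher and 0 lower, beside 11.1% and 4.99% of all genes. Dnmt3b, a de novo methyltransferase, was at 20.9 and 27.2 TPM in the controls and at 58.2 and 67.2 in the knockouts. Dnmt3l, its cofactor, was at 1.85 and 0.08 TPM against 11.2 and 10.9. Zfp57, which protects imprints, was at 16.5 and 16.3 TPM against 36.0 and 50.7. Dnmt3c, the methyltransferase of young transposons in male germ cells, was listed at 0 in both controls and at 1.99 and 2.05 TPM in the knockouts. It passed the filter only through the knockouts, so it had to differ. With the filter of 5 TPM 3 of 15 genes of this list were higher and 0 lower, but that filter admitted Dnmt3l only through the knockouts.

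Of the lists, the mitotic cell cycle had the most lower members. Of 38 tested, 13 were lower and 1 higher, beside 4.99% and 11.1% of all genes. The median log2 difference was -0.28, and it lay between -0.37 and -0.21 under the alternatives. Without each library in turn 6 to 9 were lower, with 6 without knockout replicate 2 or control replicate 2. The count was 1 without the variance trend, where the median was -0.28 too, and 18 with median-of-ratios scaling. Cdc20, an activator of the anaphase-promoting complex, was at 410 and 409 TPM in the controls and at 273 and 224 in the knockouts. Ccnb1, cyclin B1, was at 349 and 369 TPM against 219 and 249, and Tpx2, a spindle factor, at 103 and 122 against 63.5 and 60.4. The replication helicase gene Mcm7 was at 313 and 394 TPM against 233 and 224, and the proliferation marker Mki67 at 68.5 and 82.8 against 51.9 and 50.6. The differences were small, with the groups not overlapping in 23 of 38 genes in the lower direction, beside 18.0% of all genes. The lower members named here had means between 50 and 1000 TPM. Of all genes with a mean of 50 to 100 TPM 7.36% were lower, and of those at 100 to 1000 TPM 12.6%, more than the 4.99% over all levels. Ccnd3, cyclin D3, was the higher member at 33.9 and 47.1 TPM against 79.9 and 79.9.

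The list of p53 targets, p53 relatives and apoptosis genes was mixed, with 6 of 33 higher and 3 lower, and with 4 to 6 higher and 0 to 4 lower without each library in turn. Bbc3, which encodes the pro-apoptotic protein PUMA, was at 0 and 0.05 TPM in the controls and at 6.68 and 10.4 in the knockouts. Ccng1, Plk2 and Phlda3 were also higher, with Ccng1 at 47.5 and 41.5 TPM against 84.5 and 80.2. The remaining higher members were Trp63 and Trp73, relatives of p53, at under 0.5 TPM in the controls and 2.16 to 5.48 in the knockouts. Bbc3, Trp63 and Trp73 passed the filter only through the knockouts, so they had to differ. With the filter of 5 TPM 4 of 28 members were higher and 3 lower, but that filter still admitted Bbc3, again only through the knockouts. Cdkn1a, a classical target, was at 36.3 and 27.4 TPM against 26.6 and 48.9 with overlapping libraries. Sesn1, Gtse1 and Trp53inp1 were lower. The shares of this list, 18.2% higher and 9.1% lower, stand beside 11.1% and 4.99% of all genes. Trp53 itself was at 39.4 and 44.2 TPM against 31.5 and 29.7.

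Of 25 tested genes of striated muscle, 12 were higher and 1 lower, beside 11.1% and 4.99% of all genes, with a median log2 difference of 1.03, and 8 to 11 were higher without each library in turn. Tnni2, a fast troponin, was at 7.59 and 2.86 TPM in the controls and at 37.2 and 32.0 in the knockouts. Des, the filament protein desmin, was at 1.60 and 0.77 TPM against 18.9 and 13.4, and Tnnt2, a cardiac troponin, at 1.94 and 2.40 against 12.6 and 29.7. All 3 were higher in both knockouts, but 8 of the 33 listed muscle genes, Acta1 and Ttn among them, stayed under the filter. Developmental transcription factors passed the filter for 30 of 74 members, of which 10 were higher. Leaving out knockout replicate 1 or 2 left only 21 members past the filter, with a median log2 difference of 0.61 or 0.44 beside 0.67. Such fits therefore do not show how far the count of higher members depended on a single library. That count was 6 with quantile normalization, and 4 of 15 with the filter of 5 TPM. Hoxb1, which patterns the hindbrain, was at 0.29 and 0.90 TPM against 19.8 and 14.7, so it passed either filter only through the knockouts. Of 38 neuronal genes 17 were tested and 5 were higher, led by Nefm, a neurofilament gene, at 9.83 and 8.91 TPM against 41.8 and 40.7. Without knockout replicate 2 only 1 of these was higher, 3 or 4 were without another library, and 2 were with quantile normalization. Spermatid genes passed the filter for 12 of 28 members with 2 higher and 1 lower, and 0 were higher without knockout replicate 1 or control replicate 2. Genes of the oocyte passed the filter for 10 of 25 members with 2 higher, or 0 of 7 without knockout replicate 2. Nobox, a transcription factor of primordial oocytes that is on this list, was listed at 0 in both controls and at 5.77 and 11.3 TPM in the knockouts. It passed the filter only through the knockouts.

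Marker lists of somatic cells had more higher than lower members, though most members reached neither level. Their counts are to be read beside 11.1% of all genes higher and 4.99% lower. The Sertoli cell list had 6 of 25 tested members higher and 0 lower, namely Rhox5, Krt18, Krt8, Clu, Trf and Cst12, while its defining member Sox9 was at 8.53 and 6.16 TPM in the controls and at 11.4 and 27.3 in the knockouts. The stromal list had 9 of 20 higher and 0 lower, with 4 higher without control replicate 1 and 5 of 10 with the filter of 5 TPM. Pdgfrb was at 0.09 and 1.31 TPM against 12.4 and 12.9, and Col1a1 at 5.60 and 7.81 against 24.1 and 27.4, while Dcn, Lum and Tcf21 were at 0 to 1.80 TPM in every library. Endothelial markers had 4 of 15 higher and 1 lower (2 higher without knockout replicate 2 or control replicate 1), with Pecam1 at 5.63 and 3.48 TPM against 14.6 and 29.3 and Cdh5 at 11.4 and 11.01 against 14.8 and 12.1. Blood markers had 5 of 12 higher and 0 lower (2 higher without knockout replicate 1 or control replicate 2, 3 without knockout replicate 2, and 3 with quantile normalization), led by Fcer1g at 89.9 and 74.7 TPM against 269 and 327, a log2 difference of 1.84. Of the 27 blood markers 11 were under 1 TPM in every library. The Leydig cell list had 5 of 15 members tested and 1 higher, and its median was 0.32, or -0.21 with the filter of 5 TPM. Whether more somatic RNA in the knockout libraries or expression in germ cells gave the higher somatic and tissue genes was not tested, and in bulk samples fewer cells of a type and less RNA per cell cannot be told apart.

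**Figure D5:**
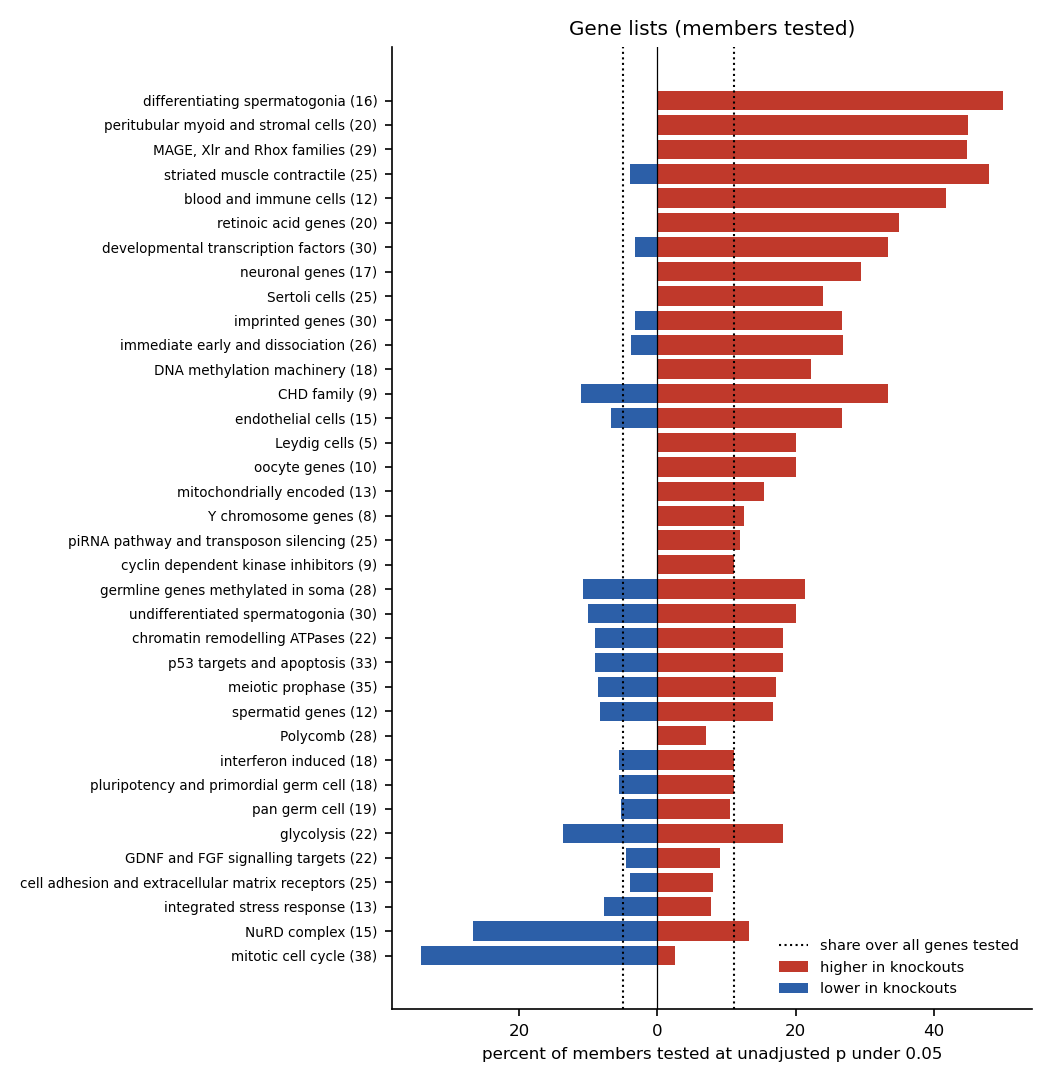
Percent of tested members of each list that were higher (red, to the right) or lower (blue, to the left) in knockouts at an unadjusted limma p under 0.05, with the number tested in parentheses; dotted lines mark the shares over all genes, 11.1% higher and 4.99% lower. Differentiating spermatogonia, stromal, MAGE, Xlr and Rhox, and striated muscle genes have the longest red bars, and the mitotic cell cycle the longest blue bar.

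Genes of the NuRD complex went both ways, to be read beside 11.1% of all genes higher and 4.99% lower. Of 15 genes 2 were higher and 4 lower, Chd4 included, and 1 to 3 were lower without each library in turn, the fewest without control replicate 2, and 2 without the trend. Chd3, the closest relative of Chd4 and its alternative in NuRD, was at 14.5 and 24.3 TPM in the controls and at 48.6 and 42.2 in the knockouts (log2 difference 1.22, standard error 0.324). Chd5, the third such ATPase, was at 5.09 and 3.64 TPM against 9.44 and 15.9. The sum of Chd3 and Chd5 in the knockouts stayed far under the control level of Chd4. Among the other subunits Rbbp7, Mta2 and Mta1 were lower, with Rbbp7 at 817 and 849 TPM against 578 and 701. Hdac1, Hdac2, Mbd3 and Gatad2a differed by -0.24 to 0.09 on the log2 scale and did not reach the unadjusted level. Of 22 remodelling ATPases 4 were higher and 2 lower (2 or 3 higher and 0 to 2 lower with 3 libraries), and Smarca1, the ISWI ATPase SNF2L, was at 1.86 and 0.06 TPM against 25.7 and 18.9. Polycomb genes had 2 of 28 higher and 0 lower.

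Meiotic prophase genes had 6 of 35 higher and 3 lower, or 4 to 7 higher and 0 to 2 lower with 3 libraries. Hormad1, a protein of the chromosome axis, was at 139 and 119 TPM in the controls and at 219 and 234 in the knockouts, and Sycp3, of the synaptonemal complex, at 104 and 104 against 198 and 173. Rec114 was lower at 91.3 and 104 TPM against 73.0 and 60.3. The piRNA pathway had 3 of 25 higher and 0 lower and a median of -0.04, close to that of all genes. Among all genes 11.1% were higher and 4.99% lower, beside 17.1% and 8.6% of the meiotic list. Pou5f1, the pluripotency factor OCT4, was at 43.0 and 42.6 TPM against 78.5 and 72.1, while 2 of 18 pluripotency and primordial germ cell genes were higher and 1 lower.

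Glycolysis genes went both ways, with 4 of 22 higher and 3 lower, or 2 to 4 higher and 2 to 5 lower with 3 libraries. Besides Slc2a3 the transporter gene Slc2a1 was higher at 45.0 and 51.7 TPM against 98.8 and 71.6, and so were Pfkl and Ldha, while Aldoc was lower at 114 and 136 TPM against 49.9 and 70.4. Immediate early genes, which also respond to cell handling, had 7 of 26 higher and 1 lower, with Dusp1 at 70.2 and 95.9 TPM against 177 and 265. Mitochondrially encoded genes had 2 of 13 higher and 0 lower, and the most abundant gene of all, mt-Cytb, was at 19050 and 16640 TPM against 25340 and 23910. The alpha-tubulin genes Tuba3a and Tuba3b, near-identical copies that the germ line expresses strongly, were lower, with Tuba3b at 5549 and 6025 TPM against 3286 and 3323. Interferon-induced genes had 2 of 18 higher and 1 lower, and genes of the integrated stress response 1 of 13 each way. The lists of this paragraph stand beside 11.1% of all genes higher and 4.99% lower.

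Libraries also differed inside each genotype. Across genes Pearson r was 0.928 between the controls, 0.898 between the knockouts and 0.878 to 0.892 between a control and a knockout, as a description over genes that share each library's depth. The median absolute log2 difference was 0.408 between the controls, 0.441 between the knockouts and 0.408 between the group means, which average 2 libraries and so vary less than single ones. The first principal component (47.5% of variance) put the controls at -60.7 and -60.1 and the knockouts at 47.5 and 73.3, while the second (29.3%) set the knockouts apart from each other, at 74.2 and -59.8. Rrm2b, a subunit of ribonucleotide reductase, was at 119 TPM in knockout replicate 1 and 4.17 in replicate 2, beside 0.46 and 12.0 in the controls. Gpr157 was at 35.6 and 0.38 TPM in the knockouts beside 82.4 and 28.9, and Muc1, a mucin, at 0 and 19.8 beside 0.21 and 2.76. In each of these the knockout libraries lay on different sides of the controls or far apart from each other.

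The 10 genes with the smallest p, and Gal, can be set beside oocytes of the same genotypes, which were measured in other libraries and a separate table, so the values are given without a test. Gal had log2 differences of 4.03 in spermatogonia, 5.00 in non-growing oocytes at P1 and 3.76 at P5. Dlk1 had 2.30, 2.18 and 2.31, and Ly6k 3.71, 1.74 and 3.67. Rhox5 had 2.35, 0.53 and 2.35, and Mdk 1.81, 0.43 and 2.48. Slc2a3, the gene with the smallest p in spermatogonia, had 2.27 there and 0.01 and 0.89 in the oocytes. Zfp385a had 3.23, 1.06 and 0.14, and Krt18 2.5, -3.07 and 1.20. Atp1b2 had 2.03 in spermatogonia and 0.37 at P5 and was listed at 0 at P1, and Cacng8 had 2.57 and was listed at 0 in both kinds of oocyte libraries. Chd4 itself had -2.52, -2.87 and -1.20.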

How the data were processed

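The authors deposited TPM values per gene for the 4 spermatogonia libraries. Per the submitters' processing notes, Trimmomatic 0.39, STAR 2.5.4b, SAMtools 1.9 and featureCounts 2.0.1 were used with GRCm38. The annotation, gene lengths, strandedness and TPM formula were not given in the sources used here. With GENCODE M21 union exon lengths, which matched 53292 symbols, 99.07% to 99.2% of the values below 20 reads came within 0.05 of whole reads, and this gave the depths.

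Genes that reached 1 TPM in 2 or more libraries were fitted as log2(TPM + 1), a scale that understates changes of low genes, with limma 3.58.1 (lmFit, and eBayes with a trend) in R 4.3.3, two-sided, and p-values were adjusted over the 18671 genes by the Benjamini-Hochberg method. Residual degrees of freedom were 2 and prior degrees of freedom 3.973. It was checked on simulated data. Python 3.11.15 with numpy 2.4.6, matplotlib 3.10.9 and pandas 2.3.3 made tables and figures. The text names Chd4, the 14 genes with the largest difference each way and the 10 with the smallest p among genes at unadjusted p under 0.05 with a mean of at least 5 TPM in a group, no overlap between groups and no predicted symbol. It then names up to 4 members of each list by p, defining markers, and other members chosen after their values were seen. The comparison and the 36 gene lists were chosen with earlier results of these data known, so no list was tested. Alternatives were another pseudocount, other filters and scalings, no trend, voom on recovered reads, a replicate block and leaving out each library, and, chosen after seeing the data, only promoter windows within 1000 bases of the M21 gene start. Some genes that the rule names are left out of the text.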

Additional observations from a re-analysis of the deposited data

Results flagged for a closer look

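A few of the leading genes had the opposite direction in oocytes of the same genotypes, with knockout and control libraries not overlapping in either cell type. The difference between the cell types was not tested, since the tables are separate. Sfrp2 had a log2 difference of -3.04 in spermatogonia and 0.61 in P5 non-growing oocytes, where it went from a mean of 0.231 to 0.8502 TPM and so was scarce. Krt18 had 2.5 in spermatogonia and -3.07 in P1 non-growing oocytes, where its mean was 82.7 TPM in the controls and 26.4 in the knockouts. The small RNA gene Mir181a-2 had -2.99 in spermatogonia, 0.99 in P1 and 1.83 in P5 oocytes. Snord53 had -2.88 in spermatogonia and 1.59 in P5 oocytes, where it was listed at 0 in the controls. Both of these small RNA genes rested on 1 and 11 reads in the spermatogonia controls.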

How the results depend on the processing

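With 2 libraries in a group and 2 residual degrees of freedom, the number of genes past the adjusted limma test depended on the settings. It was 0 in the main analysis and with a pseudocount of 0.1, no filter, median-of-ratios scaling or no trend, 56 with a filter of 5 TPM (fewer genes tested), and 1, Slc2a3, with quantile normalization and again with voom on recovered reads. Without each library in turn it was 0 to 24. The unadjusted count was 1848 to 2236 without each library in turn and 2227 to 3078 under the other settings without a block, with 66.3% to 75.6% higher apart from the scalings given above; with a library left out the share was 58.0% or 58.2% without a knockout and 74.2% or 78.3% without a control. The log2 difference of Chd4 was -2.70 to -2.34 without each library in turn (limma adjusted p 0.0421 to 0.0554) and -2.52 with the filter of 5 TPM (0.0155), and its adjusted p was 0.0561 to 0.318 under the other settings. Same-numbered libraries deviated with a correlation of 0.008 over 2 pairs, so the numbers do not show a pairing; with the replicate number as a block the adjusted count was 0, the unadjusted count 2880 and the Chd4 adjusted p 0.111. Over 12 alternatives, 38 named genes gave 417 values, of which 0 changed direction. These genes were chosen for groups that did not overlap, so leaving out a library or changing the pseudocount, filter or trend could not reverse them. A gene that fell under the filter in a setting gave no value there. Besides the counts given with the lists above, without the trend 1 gene each was lower among p53 targets and meiotic genes, 0 among remodelling ATPases, 2 glycolysis genes were higher, and 1 piRNA gene and 0 mitochondrially encoded genes were higher. With quantile normalization 2 remodelling ATPases were higher, with median-of-ratios scaling 5 glycolysis genes were lower, and 0 spermatid genes were higher with quantile normalization, voom or no trend. The medians of 17 of 36 lists changed sign under some setting, those of NuRD, CHD, glycolysis and Polycomb genes among them; the cause was not tested.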
